A study of Homo sapiens with 2 samples.

Results

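The transcripts described here carry IDs from 2 stretches of the UCSC Known Genes numbering, uc003nfo to uc003nhk and uc003niv to uc003nkm, and have a length of 350 to 800 nt. These ID stretches were taken to span the large histone gene cluster in band p22 of chromosome 6. That assignment rests on the numbering of build hg19, while the submitters' processing notes name hg38 and the annotation behind the IDs is not given in the sources used here. The count table listed 77 IDs in the stretches among 68731 in all. Of these, 50 fell in the length window, 24 were longer, and 3 had no count in either library and therefore no length. The 50 are called histone-range transcripts below, 29 from the first stretch and 21 from the second. Members were selected by ID and by length, and their levels entered the rule only through the 1 count needed to recover a length. The rule was set with earlier results of these data known.

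Histones are the proteins around which DNA is wound, with H2A, H2B, H3 and H4 in the core particle and H1 as the linker. Their replication-dependent genes lie in clusters, are short and lack introns, and are transcribed mostly in S phase. Most of their mRNAs end in a conserved stem-loop, bound by the stem-loop binding protein SLBP, in place of a poly(A) tail. DDX3X is a DEAD-box RNA helicase that binds mRNAs and acts in translation initiation.

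RNA bound to DDX3X was measured by CLIP-seq, in which ultraviolet light links RNA to protein before the protein is precipitated with an antibody. The cells were HEK293FT, an established line from human embryonic kidney, labelled as wild type, at rest and exposed to DMSO, the solvent control for thapsigargin. The 2 libraries are replicates of this single group, and nothing in the labels says that they came from separate cultures, so the tests below measure the spread between these libraries only. With no input RNA or total RNA analysed here, more RNA in the cell and more RNA recovered with DDX3X cannot be told apart. The libraries held 19307022 counts in replicate 1 and 11238842 in replicate 2.

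The label of the group could be checked only in part. The files do not pair the IDs with gene symbols, and none of the IDs in either stretch was found among the gene synonyms of the supplied RefSeq table (GRCh38.p14), so no member is named as a given histone gene. That table lists 55 protein-coding genes of this cluster, between positions 25726063 and 27893891 of chromosome 6: 6 of H1, 12 of H2A, 15 of H2B, 10 of H3 and 12 of H4. Gene spans in it ran from 386 to 412 nt for H4, from 457 to 527 nt for H2A and from 724 to 797 nt for H1. Those of H2B ran from 451 to 13229 nt, with 12 of 15 inside 350 to 800 nt, and those of H3 from 486 to 3296 nt, with 8 of 10 inside. Members ran from 353 to 789 nt with a median of 459 nt. Among them, 11 were under 400 nt and 7 were of 700 nt or more. Those under 400 nt had a median of 366 nt, shorter than the shortest gene span listed, 386 nt. Others, such as uc003niz.2 at 438 nt, fell between the longest span of H4 and the shortest of H2B. Such members matched the span of no family, so length does not settle the label. The lengths were recovered from the ratio of count to TPM and follow the authors' annotation, whose gene models may differ from those of RefSeq.

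At the upper end of the length window, the longest member was uc003njx.2 (789 nt), with a mean of 0.687 TPM, and the next was uc003ngq.2 (784 nt), with 1139 TPM. The nearest transcripts outside it were uc003ngs.2 (811 nt), with 843 TPM, and uc003nix.1 (820 nt), with 479 TPM. At the lower end the shortest member had 353 nt, and none of the 74 IDs with a recovered length was shorter than the window. The IDs just outside the stretches had lengths of 1034 to 5362 nt. Of these, uc003nhl.1 had a mean of 373 TPM and uc003niu.1 had 324 TPM, while uc003nfn.2 and uc003nkn.1 had 2.14 and 3.36 TPM.

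Histone-range transcripts were among the most abundant short RNAs in the DDX3X libraries, but their levels covered nearly the whole scale. TPM (transcripts per 1000000), which divides each count by transcript length, had a median over the 50 of 121 in replicate 1 and 109 in replicate 2. The same medians over the 2089 other transcripts of 350 to 800 nt were 8.02 and 8.21, and over all 57721 transcripts with a count they were 4.03 and 4.17. Of the 50, 7 had a mean of at least 1000 TPM, 20 lay from 100 up to 1000 TPM, 12 from 10 up to 100 TPM, and 11 under 10 TPM. At least 100 TPM was thus reached by 54.0% of the histone-range transcripts, by 16.7% of the others of that length and by 2.73% of all transcripts with a count. These are descriptions of a chosen set, and no test was made of the difference in level.

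**Figure D1:**
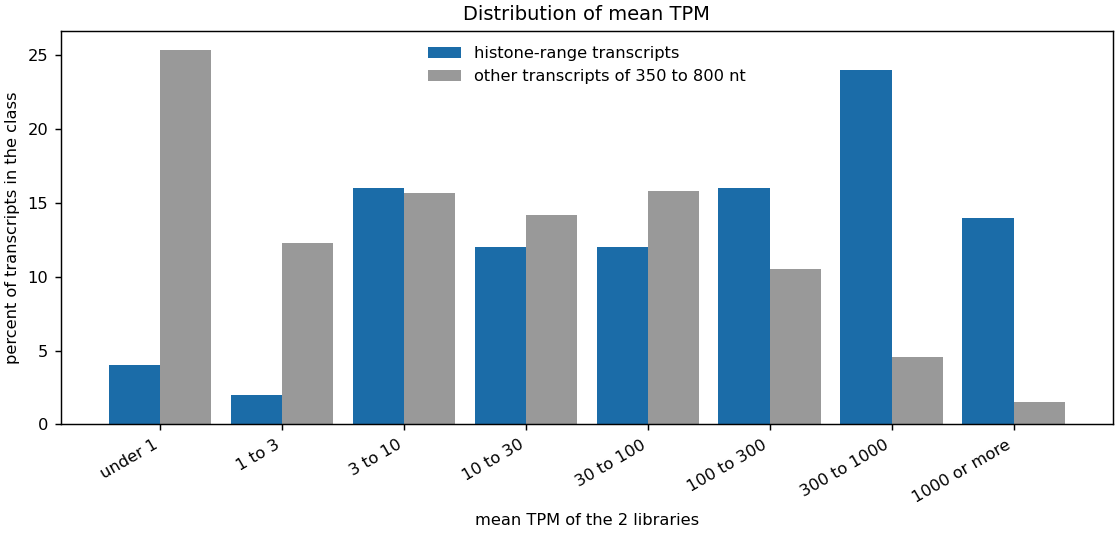
Percent of the 50 histone-range transcripts (blue) and of the 2089 other transcripts of 350 to 800 nt (grey) in each range of mean TPM over both libraries. Of the histone-range transcripts, 38.0% had 300 TPM or more, and 2 of the 50 were under 1 TPM, where 25.4% of the others lay.

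Of the 100 transcripts with the highest mean TPM in the whole table, 12 were histone-range transcripts, at ranks 29 to 76. Another 42 of those 100 were other transcripts of the same length. The histone-range set took 23 of the first 1000 places by TPM and 15 by CPM (counts per 1000000 of the library total), which does not divide by length. The 50 transcripts made up 0.0727% of the IDs. Their part of the library was 0.498% of replicate 1 (0.495 to 0.502%, Wilson 95% interval) and 0.435% of replicate 2 (0.431 to 0.439%), which averages to 0.467% ± 0.0449 (SD, n = 2). The intervals cover counting error only, and the libraries differed by more than that. Of the summed TPM they held 1.93% in replicate 1 and 1.74% in replicate 2. Within the set the 10 highest transcripts accounted for 64.5% of the TPM in replicate 1 and 64.3% in replicate 2.

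Highest of all was uc003niv.2 (480 nt), the first ID of the second stretch, with 1516 TPM in replicate 1 and 1483 in replicate 2. The second, uc003ngi.2 (389 nt), had 1494 and 1376 TPM. The third, uc003njr.2 (353 nt, the shortest member), had 1486 and 1365 TPM. Among themselves these 3 came in the same order in both libraries, but in replicate 2 uc003ngr.2, at 1365.5 TPM, stood above uc003njr.2, at 1364.6 TPM. The gaps between neighbouring means of the 3 were 64.6 and then 9.79 TPM. Each was smaller than the SD over the libraries of the lower of the pair, 83.6 and then 86.0 TPM. With 2 libraries the order was not tested. The fourth, uc003ngr.2 (521 nt), had 1289 and 1366 TPM and was the only one of the 10 that was lower in replicate 1.

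Next came uc003niw.2 (497 nt), with 1190 TPM in replicate 1 and 1126 in replicate 2. It was followed by uc003ngq.2, with 1212 and 1066 TPM, which had more reads than any other member, 9746 in replicate 1 and 4818 in replicate 2. The seventh, uc003niz.2 (438 nt), had 1148 and 1036 TPM. In each of these 7, both libraries exceeded 1000 TPM. The 3 transcripts after them did not reach it in both: uc003nfw.2 (731 nt) had 1033 and 888 TPM, uc003ngy.2 (376 nt) had 990 and 792 TPM, and uc003nfs.1 (472 nt) had 1072 and 672 TPM. The SD of the last, 283 TPM around a mean of 872 TPM, was the widest among the 10.

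**Figure D2:**
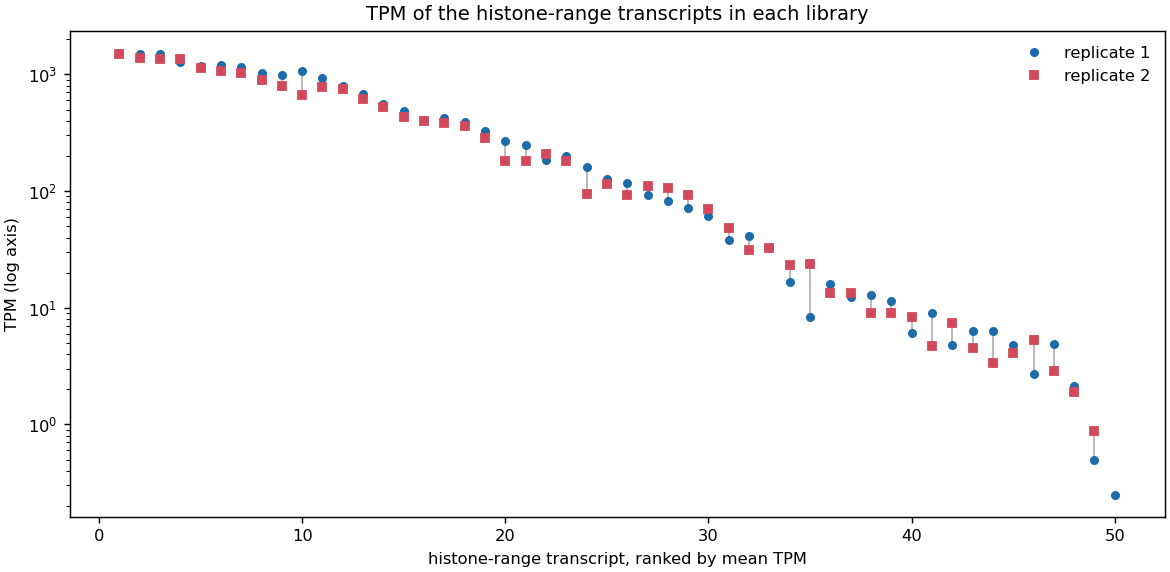
TPM of each of the 50 histone-range transcripts in replicate 1 (blue circles) and replicate 2 (red squares), ranked by mean TPM, with a grey line joining the libraries; the axis is logarithmic. The first 7 exceed 1000 TPM in both libraries, and the last, uc003nfo.2, has 0 counts in replicate 2 and no red square.

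At the other end, 2 members had fewer than 10 reads summed over the libraries. These were uc003nfo.2, with 2 counts in replicate 1 and 0 in replicate 2, and uc003njx.2, with 4 in each. A count of 0 in replicate 2 allows up to 3 counts, or 0.267 CPM, so uc003nfo.2 was not distinguishable from absent in that library. Its 2 counts in replicate 1, or 0.104 CPM, lay below that limit. The lowest of the remaining 48, named after its value was seen, was uc003nhf.2 (366 nt), with 2.13 and 1.90 TPM, and the highest of these 48 stood 745 times above it. Length did not order the set by level: across the 48 transcripts with at least 10 reads, Spearman's rho between length and mean TPM was 0.13 and Pearson's r of their logarithms was 0.070. The points share both libraries, and the values are a description.

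Members of every length class reached high levels. The 11 transcripts under 400 nt had a median of 248 TPM in replicate 1 and 181 in replicate 2, and 6 of them had at least 100 TPM. The 27 from 400 up to 500 nt had medians of 126 and 111 TPM, with 16 at or above 100 TPM. The 12 of 500 to 800 nt had medians of 71.6 and 88.4 TPM, with 5 at or above 100 TPM. Both members with fewer than 10 reads were in this last class, and its 10 members with at least 10 reads had medians of 250 and 247 TPM. Each class held transcripts over 1000 TPM and transcripts under 10 TPM, so the ranges overlapped. The 2 ID stretches also overlapped, with medians of 186 and 181 TPM for the first and 117 and 93.6 TPM for the second.

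Large steps in level occurred between members with neighbouring IDs. Among 32 pairs of members with consecutive IDs and at least 10 reads each, mean TPM differed by a median of 2.90-fold and by at least 10-fold in 11 pairs. The steps in this paragraph were picked after their values were seen. The widest was between uc003ngi.2, at 1435 TPM, and the ID after it, uc003ngj.2 (724 nt), at 3.86 TPM, a difference of 372-fold. Similarly uc003nfv.2 (458 nt), at 10.9 TPM, stood before uc003nfw.2, at 960 TPM.

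**Figure D3:**
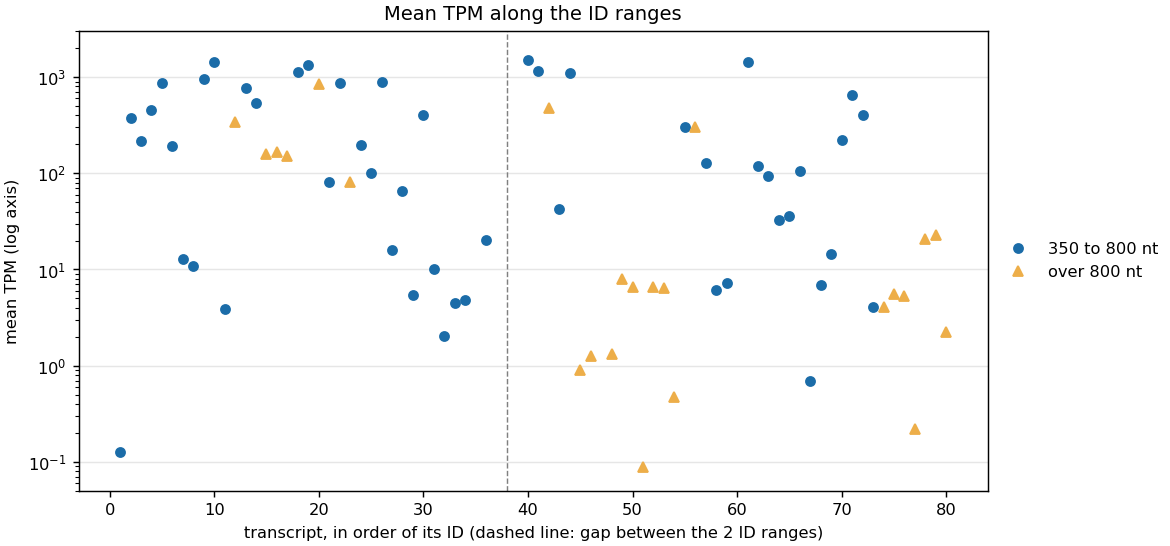
Mean TPM over both libraries (logarithmic axis) of the transcripts of both ID stretches with a count, in ID order; blue circles are the 50 of 350 to 800 nt, orange triangles the 24 longer ones, and the dashed line marks the gap between the stretches. Among blue circles with consecutive IDs and at least 10 reads each, neighbours differ by up to 372-fold, and a run of longer transcripts in the second stretch stays at or below 8.01 TPM.

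The 24 longer transcripts of the same stretches had medians of 7.53 TPM in replicate 1 and 6.63 in replicate 2, with 7 at or above 100 TPM and 14 under 10 TPM. From uc003nja to uc003njk the second stretch held 10 IDs, of which 9 were over 800 nt and 1 had no count, and none exceeded 8.01 TPM. The stretches were therefore not made up of histone-sized transcripts alone.

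Near-identical counts at consecutive IDs were few in the set. This check does not see reads shared in part or between IDs further apart. Of 59 pairs of consecutive IDs in the stretches with at least 10 reads each, 3 had identical counts in both libraries and 5 lay within 10% of each other in both. None of these 5 pairs joined 2 members. One joined a member to a longer transcript: uc003ngr.2 had 6888 counts in replicate 1 and 4103 in replicate 2, and uc003ngs.2 had 6845 and 4032. Histone genes of one family have near-identical coding sequences, and how reads that match several of them were counted is not given in the sources used here. The level of a single member is uncertain for that reason, since reads could have been shared, split or dropped.

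The libraries agreed closely on the order of the set. Across the 48 histone-range transcripts with at least 10 reads, Pearson's r between the libraries was 0.992 and Spearman's rho was 0.985 on the log2(CPM + 1) scale. The 1550 other transcripts of 350 to 800 nt with at least 10 reads had 0.967 and 0.947. These are correlations across transcripts of the same 2 libraries, with no p-value attached, and they are higher where levels are spread more widely and read numbers are larger. edgeR's biological coefficient of variation was 0.170 for the histone-range transcripts, 0.366 for the others of that length and 0.319 for all. Restricted to 1000 or more reads in sum, the coefficients were 0.143 (24 transcripts), 0.133 (356) and 0.138 (7765), so the classes lay close together there.

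Most histone-range transcripts that differed between the libraries were higher in replicate 1. Each transcript's split of reads between the libraries was compared with the split of the library totals by a two-sided exact binomial test, and the p-values were adjusted by the Benjamini-Hochberg method over all 46395 transcripts that had 10 or more reads in sum; below, called means an adjusted p under 0.05. This test asks whether 2 libraries differ by more than sampling noise, and it says nothing of conditions. Of 48 histone-range transcripts tested, 25 were called, 22 of them higher in replicate 1 and 3 higher in replicate 2. Over all transcripts tested 48.6% were called, 23.6% higher in replicate 1 and 25.0% higher in replicate 2. The number called was near the background, while the direction was not balanced as it was over all transcripts.

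The median log2 ratio of replicate 1 over replicate 2 was 0.17 in the set, with quartiles of -0.04 and 0.37. It was 0.05 over the other transcripts of 350 to 800 nt and -0.01 over all. The summed counts of the others of that length also leaned to replicate 1, with a log2 ratio of 0.12, against 0.20 for the summed counts of the set. Sums give most weight to deeply read transcripts. Taken singly, 54.8% of the 1550 others tested had a positive ratio, against 72.9% of the 48 histone-range transcripts. When the split of those others replaced the library-wide split, an alternative chosen after seeing the data, 16 histone-range transcripts were called, 9 higher in replicate 1 and 7 higher in replicate 2, and 49.7% of all transcripts were called. With the binomial variance multiplied by the mean deviation at each read number, 0 of the 48 were called, and 3 had an unadjusted p under 0.05, as did 4.81% of all transcripts.

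Read number moved with these calls. Of the 24 histone-range transcripts with at least 1000 summed reads, 20 were called, 19 of them higher in replicate 1. At that depth 59.8% of all transcripts were called, 29.0% towards replicate 1 and 30.8% towards replicate 2, and 60.7% of the 356 others of 350 to 800 nt were called, 46.3% higher in replicate 1. With at least 5000 reads, 13 of 14 members were called, all 13 higher in replicate 1, where 71.8% of all transcripts were called, 44.0% towards replicate 1 and 27.8% towards replicate 2. Of the 66 others of that length and depth, 81.8% were called and 75.8% were higher in replicate 1. The median log2 ratio was 0.18 for the 10 members with 5000 up to 10000 reads and 0.19 for the 38 others of that length and depth. Of 15 tested members with fewer than 200 reads, 1 was called, where 43.7% of all transcripts of that depth were.

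**Figure D4:**
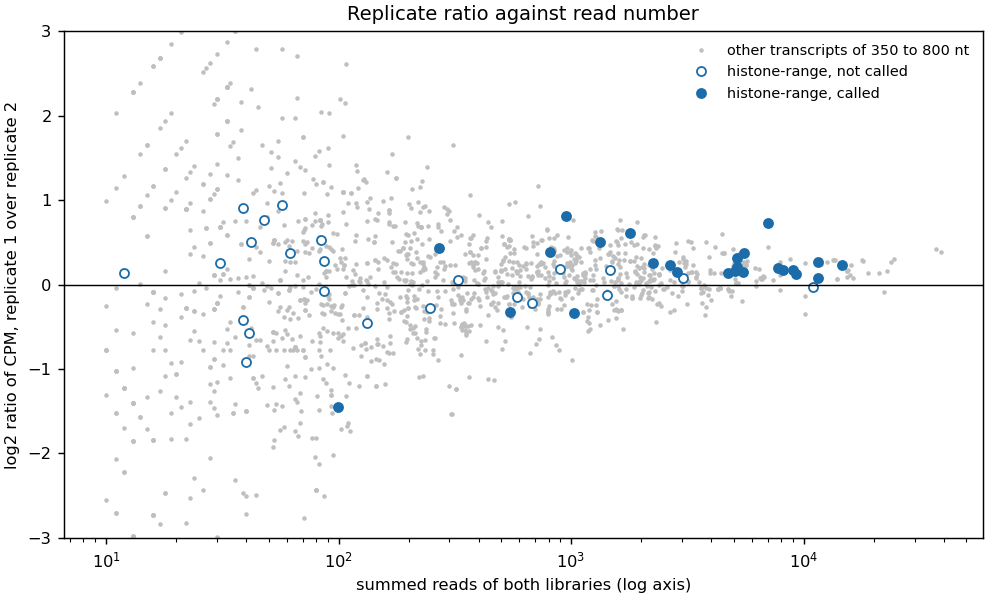
Log2 ratio of CPM, replicate 1 over replicate 2, against summed reads (logarithmic axis) for the 48 histone-range transcripts with at least 10 reads (blue; filled where called by the exact binomial test) and the 1550 other transcripts of 350 to 800 nt (grey dots; 79 lie beyond 3 in either direction and are not drawn). Filled points gather just above 0 at high read numbers, and open points spread widely below 200 reads.

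The 20 called members with at least 1000 reads had log2 ratios from -0.33 (uc003njt.1) to 0.72 (uc003nfs.1), with 16 between 0.05 and 0.40. Among those with a mean of at least 100 CPM, uc003nfs.1 had the largest ratio: replicate 1 gave 5188 counts and replicate 2 gave 1828, for a log2 ratio of 0.72 (exact 95% interval 0.65 to 0.80; exact binomial test, adjusted p = 3.4e-78). The next was uc003ngy.2, with 3818 and 1717 counts and a ratio of 0.37 (0.29 to 0.46; exact binomial test, adjusted p = 2.2e-17). The intervals of these transcripts do not overlap, and they cover counting error only. No member with a mean of at least 100 CPM was called higher in replicate 2.

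Other members outside that abundance limit were picked after their values were seen. uc003njn.1 (439 nt) had 718 and 237 counts, a log2 ratio of 0.82 (exact 95% interval 0.61 to 1.04). The ratio was 0.60 for uc003nka.2 (477 nt), with 1302 and 498 counts, and 0.50 for uc003nfq.2 (371 nt), with 943 and 387 counts. All 3 were called, and all 3 lay above the upper quartile of the set.

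The 3 members called higher in replicate 2, also named after their values were seen, had mean levels under 100 TPM. uc003njt.1 (707 nt) had 592 and 434 counts and a log2 ratio of -0.33. A like ratio of -0.32 was found for uc003ngt.2 (434 nt), with 317 and 231 counts. The lowest ratio of the set, -1.46 (exact 95% interval -2.09 to -0.86), belonged to uc003ngz.2 (445 nt), which rested on 38 and 61 counts. It was the only one of the 48 that differed more than 2-fold between the libraries.

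The SD of the log2 ratio was 0.44 over the 48 tested members and 0.22 over the 24 with at least 1000 reads. Among the 10 most abundant members, all within those 24, the ratio varied less than over the 48. It ran from -0.03 for uc003ngr.2, which was not called (exact binomial test, adjusted p = 0.34), and 0.08 for uc003niv.2, which was (adjusted p = 0.010, exact binomial test), to 0.72 for uc003nfs.1. The other 7 lay between 0.13 and 0.37 and were called. Against the split of the other transcripts of 350 to 800 nt, uc003niv.2 had a ratio of -0.041 and was no longer called, and uc003ngr.2 had a ratio of -0.16 and was called higher in replicate 2. That baseline lies 0.12 above the library-wide one and lowers every ratio alike.

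Inside the window the replicate ratio showed little relation to length. Length and log2 ratio had a Spearman's rho of 0.0051 over the 48 histone-range transcripts and -0.030 over the 1550 others of 350 to 800 nt. Medians of the length classes were 0.23 under 400 nt, 0.19 from 400 up to 500 nt and 0.10 at 500 nt or more. The differences between these medians were not tested. In the same order, 6 of 11, 14 of 27 and 5 of 10 tested members were called. For comparison, 48.6% of all transcripts tested were called, and 47.4% of the 1550 others of 350 to 800 nt.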

How the data were processed

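Per the series text and the labels' protocols, HEK293FT cells were crosslinked at 254 nm and DDX3X-bound RNA was sequenced. The authors deposited raw counts, whole numbers per transcript, and TPM values of the same transcripts. Per the submitters' processing notes, cutadapt 4.1, STAR 2.7.0d and hg38 were used; the counting program and the treatment of duplicate and multiply matching reads are not given in the sources used here. Columns were assigned by the replicate number in their names. Lengths were the whole numbers obtained from count divided by TPM under 1 common scale (57721 transcripts, largest distance from a whole number 5.2e-10).

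Log2 ratios had 0.5 counts added to each library and were scaled to library totals. Exact binomial tests used scipy 1.17.1, TMM factors and dispersion edgeR 4.0.16 (R 4.3.3), and size factors DESeq2 1.42.0. With 1 group there was no contrast for edgeR to test. Computations were tested on simulated data. Wilson and exact intervals are at 95%. Reads without molecular identifiers are not independent molecules. Alternatives varied the scaling, filters, pseudocount, members, near-copies, variance and baseline.

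The members and lists were chosen with earlier results of these data known. Transcripts named were the 10 with the highest mean TPM, the 2 with the largest called log2 ratio in each direction at a mean of at least 100 CPM, and those nearest the limits of the rule; others are marked as picked after their values were seen. Genes of histone mRNA processing were not evaluated and no sequence is printed, because the IDs were not paired with symbols.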

Additional observations from a re-analysis of the deposited data

How the results depend on the processing

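The number of histone-range transcripts with at least 10 reads, 48, lay between 40 and 50 under other read minimums and between 46 and 47 with 1 library left out. The share of library counts, 0.467%, was 0.649% with 1 transcript kept per run of near-identical consecutive IDs, 1.83% of TPM, 0.633% with no length window, 0.293% for the first ID stretch, 0.174% for the second and 0.259% with a window of 400 to 600 nt; it lay between 0.435 and 0.498% with 1 library left out. These changes follow from which transcripts are counted and in what unit. The median of mean TPM, 112.3, was 73.5 with no length window, 190.8 in the first stretch, 123.2 with a window of 400 to 600 nt or with at least 10 reads, and between 108.8 and 121.4 with 1 library left out. The median of mean CPM, 29.0, was 22.9 with no length window and 41.6 in the first stretch.

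The 25 called members, 22 higher in replicate 1 and 3 higher in replicate 2, numbered 24 to 26 under TMM, DESeq2 size factors, other read minimums and 1 transcript per run. Over all transcripts tested, 48.6% were called in the main setting and 39.1 to 49.7% under these alternatives. The called members numbered 0, 0 and 0 with the multiplied variance, where no transcript of the whole table was called. Against the other transcripts of 350 to 800 nt they numbered 16, 9 and 7, where 49.7% of all transcripts were called. That baseline turned the ratio of uc003niv.2 from 0.081 to -0.041. The multiplied variance ended the calls of 15 of 16 transcripts named for their ratio or level, the other being uncalled already. The median log2 ratio of 0.17 stayed between 0.05 and 0.19 in 11 alternatives, lowest against that baseline. No paired analysis was possible because there is only 1 group. Depth limits single ratios: the exact 95% interval of a member's log2 ratio had a median half-width of 0.19.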
